A study of Mus musculus with 2 samples.

Results

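Genes that mark macrophages, mast cells, neutrophils, megakaryocytes and lymphocytes were read out in wild-type mouse pleuroperitoneal folds (PPFs), together with 2 cytokine genes that act on these cells. The members were 40 genes chosen by symbol from a fixed list, which was drawn up with earlier results of these data known. All 40 were found among the 38926 gene symbols listed. PPFs are paired embryonic folds that give rise to connective tissue of the diaphragm. The series holds a single group: wild type, strain given as mixed, 129s/SvlmJ-C57/BL6J, at embryonic day 12.5, with 2 libraries (replicates 1 and 2) that each pooled 2 PPF pairs dissected by hand. There is no other genotype, stage or tissue, so levels are described within this group and the only comparison is between the libraries. The sources used here do not say whether the pooled folds came from separate litters, so the spread between the libraries may be partly technical.

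Macrophages are phagocytes that in the mouse embryo first arise from yolk sac progenitors and settle in nearly every tissue before birth. They depend on the receptor Csf1r and its ligands Csf1 and Il34, and on the transcription factor PU.1, the product of Spi1. Mast cells carry the stem cell factor receptor Kit and the IgE receptor and store proteases in granules, neutrophils store antimicrobial proteins and the calcium-binding pair S100a8 and S100a9, and megakaryocytes shed the platelets. The fetal liver makes blood at this stage and lies against the developing diaphragm.

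Replicate 1 held 26370253 counts and replicate 2 held 23255957. TPM divides a gene's count by its length and brings every library to one total, so TPM levels of different genes can be set side by side. Values are means ± SD with n = 2 unless both libraries are given. Expressed means that neither library was below 1 TPM. In such bulk RNA, fewer cells of a type and less RNA per cell cannot be told apart. All 10 mesenchyme markers used to check the tissue label were expressed, among them Pdgfra at 368 ± 11.9 TPM.

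Of the 40 members, 32 were expressed, against 62.9% of all protein-coding genes and 44.4% of all listed features. The classes lay at different heights: 21 of 22 macrophage and pan-leukocyte genes were expressed, 4 of 4 megakaryocyte genes, 3 of 4 neutrophil genes, 2 of 5 mast cell genes and 0 of 3 lymphoid genes, and both cytokine genes were. The median level was 30.3 TPM for the macrophage genes, 10.5 TPM for the megakaryocyte genes, 7.20 TPM for the neutrophil genes, 0.384 TPM for the mast cell genes and 0.0980 TPM for the lymphoid genes. By library, the neutrophil median was 10.8 TPM in replicate 1 and 3.51 TPM in replicate 2, and the mast cell median 0.768 and 0.208 TPM. The order of the megakaryocyte and neutrophil medians is not firm. In replicate 1 the megakaryocyte median was 10.7 TPM, below the neutrophil one. Without Gp1bb, which shares most of its exon bases with other genes, it was 2.33 TPM over both libraries. The mast cell and lymphoid medians are the mean levels of Cma1 (7 and 0 counts) and Il7r (3 and 2 counts), so both rest on very few counts. For comparison, the median over expressed protein-coding genes was 26.9 TPM.

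**Figure D1:**
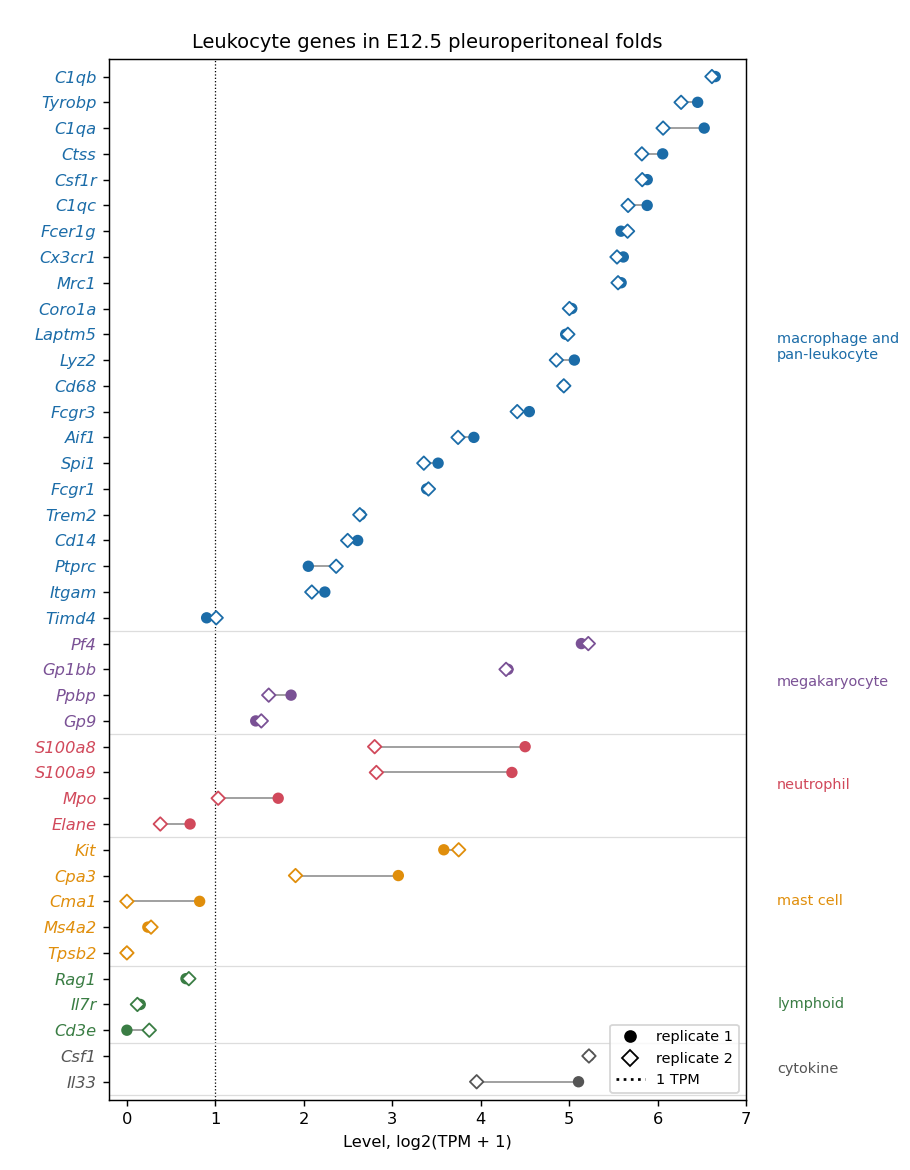
Level of each of the 40 genes as log2(TPM + 1), filled circles for replicate 1 and open diamonds for replicate 2, coloured by class; the dotted line marks 1 TPM. Most macrophage genes show both libraries close together, whereas S100a8, S100a9, Cpa3 and Il33 have replicate 1 well to the right of replicate 2.

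Among the macrophage genes were the complement C1q chains, which macrophages secrete and which join into one molecule. C1qb (chromosome 4, 136880129 to 136886187 in GRCm38) stood at 99.4 TPM in replicate 1 and 96.9 TPM in replicate 2, the highest mean of the 40 members and above 91.4% of protein-coding genes. C1qa, in the same cluster at 136895917 to 136898803, stood at 91.1 and 65.7 TPM. C1qc, which lies between them at 136889804 to 136893065, stood at 57.9 and 49.7 TPM. C1qb was the highest of the C1q genes in each library and C1qc the lowest, and replicate 1 had the larger value for all of them.

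Signalling adaptors and receptors formed another group of high members. Tyrobp, the membrane adaptor DAP12, stood at 86.5 and 75.9 TPM, and Fcer1g, the signalling chain shared by Fc receptors, at 47.0 and 49.5 TPM. Csf1r, the growth factor receptor on which macrophages depend, stood at 58.0 and 55.7 TPM. The fractalkine receptor gene Cx3cr1 had 47.9 and 45.5 TPM. The mannose receptor gene Mrc1 had 47.0 and 45.9 TPM. For Csf1r, Cx3cr1 and Mrc1 the libraries nearly coincided. Csf1r shares 15.1% of its exon bases with Hmgxb3 on the opposite strand, so part of its reads may be from that gene.

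Lysosomal and cytoskeletal members ranged from high to middle levels of the class. The lysosomal protease gene Ctss stood at 60.5 ± 7.08 TPM, the actin-binding Coro1a at 31.3 ± 0.419 TPM, Laptm5 at 30.4 ± 0.377 TPM, the lysozyme gene Lyz2 at 30.1 ± 3.10 TPM and Cd68 at 29.6 ± 0.0211 TPM. Reads of Lyz2 cannot be separated with certainty from those of near-identical lysozyme genes. The Fc gamma receptor genes Fcgr3 and Fcgr1 had means of 21.3 and 9.54 TPM, and Aif1, which encodes the microglia and macrophage protein Iba1, had 13.3 ± 1.25 TPM. Spi1, the regulator PU.1, stood at 9.85 ± 0.858 TPM.

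The lowest members of the class encode surface proteins. The lipid receptor gene Trem2 stood at 5.22 ± 0.0291 TPM, the endotoxin coreceptor gene Cd14 at 4.87 ± 0.325 TPM, Ptprc, which encodes the pan-leukocyte protein CD45, at 3.65 ± 0.714 TPM and the integrin gene Itgam at 3.49 ± 0.323 TPM. Ptprc and Itgam did not differ from each other beyond their spread. In GENCODE, 68.7% of the exon bases of Itgam also belong to Gm49368, so the level of Itgam is uncertain. Timd4, a receptor for dying cells found on some resident macrophages, had 16 counts in each library (0.868 and 1.01 TPM) and was the one macrophage gene below the threshold for expression.

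Further macrophage genes came from a separate list of 40, of which 39 were found and 30 were expressed. The highest were the lipid carrier gene Apoe (263 ± 18.1 TPM), the protease gene Ctsb (206 ± 3.21 TPM), the receptor gene Axl (148 ± 5.23 TPM) and the growth factor gene Grn (131 ± 2.27 TPM), which are not restricted to macrophages. Cd163, a haemoglobin scavenger receptor of some mature macrophages, had only 3 and 2 counts.

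The cytokine Csf1 (chromosome 3, 107741048 to 107760469) stood at 36.4 TPM in replicate 1 and 36.3 TPM in replicate 2. Il34, the other ligand of the same receptor, had 14 and 11 counts, and in TPM Csf1 was 43.2 and 47.0 times as high. Csf1r was 1.59 and 1.53 times the level of Csf1. Il33 (chromosome 19, 29925114 to 29960718), an alarmin of barrier and stromal cells, stood at 33.4 and 14.5 TPM, so its libraries lay far apart where those of Csf1 nearly coincided.

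Among the megakaryocyte genes, the platelet chemokine gene Pf4 (chromosome 5, 90772435 to 90773383) stood at 34.2 and 36.2 TPM. Its neighbour Ppbp, another platelet chemokine gene, stood at 2.62 and 2.04 TPM, and Gp9, a subunit of the platelet receptor for von Willebrand factor, at 1.74 and 1.87 TPM. Pf4 was thus 13.1 and 17.7 times as high as Ppbp, and 19.6 and 19.4 times as high as Gp9. Macrophages of the embryo are also known to express Pf4. Gp1bb, another subunit of that receptor, stood at 18.8 and 18.5 TPM, but 92.9% of its exon bases are shared with annotated genes, mainly Sept5 (65.0 ± 1.98 TPM), so its value cannot be assigned to megakaryocytes. Without Gp1bb the class median was 2.33 TPM. Of 18 other megakaryocyte genes 12 were expressed, led by Thbs1 (87.8 ± 24.7 TPM) and Fli1 (24.3 ± 1.01 TPM), which are also active in stroma and endothelium, and the platelet integrin gene Itga2b stood at 3.84 ± 0.452 TPM.

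The mast cell genes split. Kit (chromosome 5, 75574916 to 75656722) stood at 11.0 and 12.5 TPM. Cpa3, the mast cell carboxypeptidase gene (chromosome 3, 20215620 to 20242181), stood at 7.39 and 2.75 TPM. The chymase gene Cma1 had 7 counts in replicate 1 and 0 in replicate 2, and Ms4a2, the beta chain of the IgE receptor, had 2 counts in each. The tryptase gene Tpsb2 had 0 counts in both, which allows up to 0.327 and 0.382 TPM at the floor of 3 counts.

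Other mast cell genes were also scarce. Among the 14 listed, 6 were expressed, led by the tetraspanin gene Cd63 (246 ± 17.1 TPM), which many cells use, Tpsg1 (8.14 ± 1.57 TPM), Gata2 (6.45 ± 1.17 TPM) and Mitf (2.78 ± 0.0434 TPM). Tpsg1 shares 11.4% of its exon bases with Cacna1h on the opposite strand, so part of its reads may be from that gene. The protease genes Mcpt1, Mcpt4 and Tpsab1 had 0 counts in both libraries, and the IgE receptor alpha chain gene Fcer1a had 1 and 0. Kit also marks melanoblasts and germ cells. Of 10 genes of those cells, summing to 31.1 and 32.8 TPM, 4 were expressed: Sox10 (22.6 ± 2.20 TPM), which Schwann cell precursors share, Nanos3 (5.41 ± 1.25 TPM), Ddx4 (1.78 ± 0.00548 TPM) and Pmel (1.63 ± 0.117 TPM). The pigment enzyme gene Tyrp1 and the germ cell gene Dppa3 had 0 counts in both. The 10 blood progenitor genes listed were all expressed, but bulk RNA does not show in which cells. What part melanoblasts, germ cells or blood progenitors had in the level of Kit was not tested.

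The neutrophil genes differed most between the libraries. S100a8 (chromosome 3, 90668978 to 90670035) stood at 21.6 TPM in replicate 1 and 5.97 TPM in replicate 2. S100a9 (chromosome 3, 90692632 to 90695721), its partner in the antimicrobial complex calprotectin, stood at 19.4 and 6.06 TPM. Mpo, the myeloperoxidase gene of early granules (chromosome 11, 87793581 to 87804413), stood at 2.27 and 1.04 TPM, and the elastase gene Elane at 0.641 and 0.299 TPM from 5 and 2 counts. All of these members were higher in replicate 1. Mpo shares 15.0% of its exon bases with the antisense gene Gm11505, which had 10 and 5 counts.

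Lymphoid members were all below 1 TPM. Rag1, a recombinase subunit of developing lymphocytes, had 33 and 30 counts (0.589 and 0.625 TPM), while its partner Rag2 had 0 and 1. The T cell receptor subunit gene Cd3e had 0 and 2 counts, and Il7r, the interleukin 7 receptor gene, 3 and 2. Of 24 further lymphoid genes 8 were expressed, led by Cd247 (9.98 ± 0.438 TPM), Tcf7 (9.46 ± 1.74 TPM), Il2rg (5.92 ± 0.834 TPM) and Ikzf1 (4.33 ± 0.506 TPM). Cd247 shares 60.3% of its exon bases with other genes, mainly Pou2f1, and Il2rg 30.5%. The natural killer cell genes Ncr1 and Klrb1c and the B cell regulator gene Pax5 had 0 counts in both libraries.

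Promoter sequences from RefSeq (GRCm38.p6, 250 bases before to 50 after each start) were found for 34 of the 40 members. Those of Csf1r, C1qa, Tyrobp, Spi1, Cd14 and Tpsb2 were not found and so not searched. The promoters found were searched on both strands for GAGGAAGT, an octamer of the type bound by PU.1, and for AGATAA, a hexamer of the type bound by GATA factors, because these factors direct myeloid and mast cell genes. The octamer occurred in 6 of the 34 members (C1qc, Ctss, Elane, Mpo, Pf4 and S100a8) and in 3.20% of all 32851 promoter windows, or 3.69% of gene symbols. Of the neutrophil genes 3 of 4 had it, and of the macrophage genes with a promoter 2 of 17. The classes were not tested against each other. The hexamer occurred in 5 members (Cpa3, Ms4a2, Pf4, Ptprc and S100a9) and in 11.2% of all windows, or 12.7% of symbols. Pf4 was the only member with both motifs, and its octamer and hexamer matches did not overlap. Such a match is a description of the letters and not evidence of binding. Stretches of 60 bases before the start are shown for the neutrophil genes with the octamer, for C1qc and Pf4 as members of other classes that also hold it, and for the mast cell genes with the hexamer; each reads 5′ to 3′ on the gene's strand, with every match to either motif or its reverse complement in capitals. Ms4a2 had 3 hexamer matches in its promoter, and the stretch shown holds 2 of them.
S100a8, chr3:90668873-90668932, plus strand: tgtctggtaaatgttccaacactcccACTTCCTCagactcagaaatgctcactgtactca
Mpo, chr11:87793534-87793593, plus strand: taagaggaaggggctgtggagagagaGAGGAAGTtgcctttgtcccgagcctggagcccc
Elane, chr10:79886201-79886260, plus strand: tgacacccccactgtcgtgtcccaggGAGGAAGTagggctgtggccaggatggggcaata
C1qc, chr4:136893076-136893135, minus strand: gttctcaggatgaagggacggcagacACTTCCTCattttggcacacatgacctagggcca
Pf4, chr5:90772375-90772434, plus strand: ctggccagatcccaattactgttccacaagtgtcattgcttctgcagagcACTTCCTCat
Cpa3, chr3:20242195-20242254, minus strand: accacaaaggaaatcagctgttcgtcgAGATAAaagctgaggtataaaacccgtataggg
Ms4a2, chr19:11623724-11623783, minus strand: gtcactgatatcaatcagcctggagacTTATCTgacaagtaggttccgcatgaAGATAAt

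The libraries were compared to see how much pools of one tissue varied in these genes. Each ratio is that of replicate 2 to replicate 1 on the log2 scale, from counts scaled by TMM, and each gene was tested with the exact binomial test, two-sided, its p-values adjusted by Benjamini-Hochberg over the 19433 genes whose counts in the libraries summed to 10 or more. The test sets one library against the other, says nothing of conditions, and covers counting error only. Of the 40 members, 34 had enough counts. Among them 5 had an adjusted p under 0.05 and a difference of at least 2-fold, all lower in replicate 2. By that rule 1.26% of all tested genes differed, 0.551% lower and 0.71% higher. Those 5 were S100a8, S100a9, Mpo, Cpa3 and Il33. Without the fold threshold 8 members were lower and 0 higher, against 8.65% and 8.85% of all tested genes. The members were chosen with earlier results of these data known, so they are not an independent set to hold against these shares. The median ratio was -0.10 over the 34 members and -0.014 over all tested genes.

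**Figure D2:**
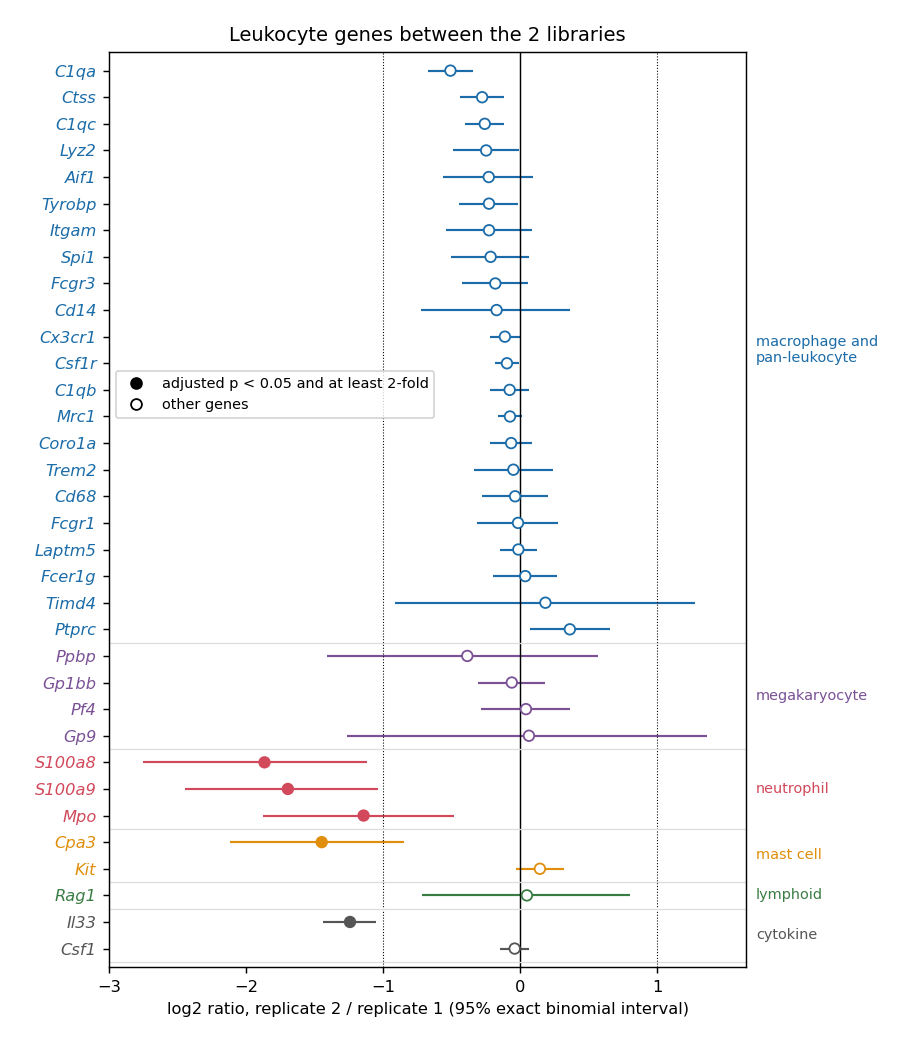
Ratio of replicate 2 to replicate 1 on the log2 scale for the 34 members with at least 10 counts, by class; bars are 95% exact binomial intervals, filled points passed the test at 2-fold or more, and dotted lines mark 2-fold. The filled points are S100a8, S100a9, Mpo, Cpa3 and Il33, all to the left, while the macrophage genes lie near 0.

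The neutrophil genes were lower in replicate 2 in 3 of 3 cases tested, with a median ratio of -1.70. S100a8 had 72 counts in replicate 1 and 17 in replicate 2, 3.65-fold higher in replicate 1 (log2 ratio -1.87, 95% interval -2.75 to -1.12, exact binomial adjusted p = 2.31e-06). S100a9 had 86 and 23 counts, 3.24-fold higher in replicate 1 (log2 ratio -1.70, -2.45 to -1.04, exact binomial adjusted p = 1.07e-06). Mpo had 66 and 26 counts, a ratio of -1.14 (-1.87 to -0.48, exact binomial adjusted p = 0.00359). With edgeR's exact test, which adds the spread common to all genes, the adjusted p of Mpo was 0.158, whereas S100a8 and S100a9 passed at 0.000681 and 0.000549.

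Of 16 further neutrophil genes 9 had enough counts, and 3 were lower in replicate 2, each by at least 2-fold, with none higher. The median ratio of the 9 was -0.31, with 6 ratios below 0 and 3 above. Ngp, a granule protein gene, had 47 and 7 counts (log2 ratio -2.48, -3.95 to -1.41, exact binomial adjusted p = 4.05e-06). Camp, which encodes the antimicrobial peptide cathelicidin, had 31 and 4 counts, a ratio of -2.62 with an exact binomial adjusted p of 0.000186. Lcn2, an iron-sequestering granule protein gene, had 22 and 5 counts, a ratio of -1.85 (exact binomial adjusted p = 0.0228, and 0.397 with edgeR's exact test). The other 6 did not pass, among them the early granule protease gene Prtn3 with 82 and 58 counts and the myeloid regulator gene Cebpa with 164 and 162. The late neutrophil genes Ly6g and Retnlg had 0 counts in both libraries.

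**Figure D3:**
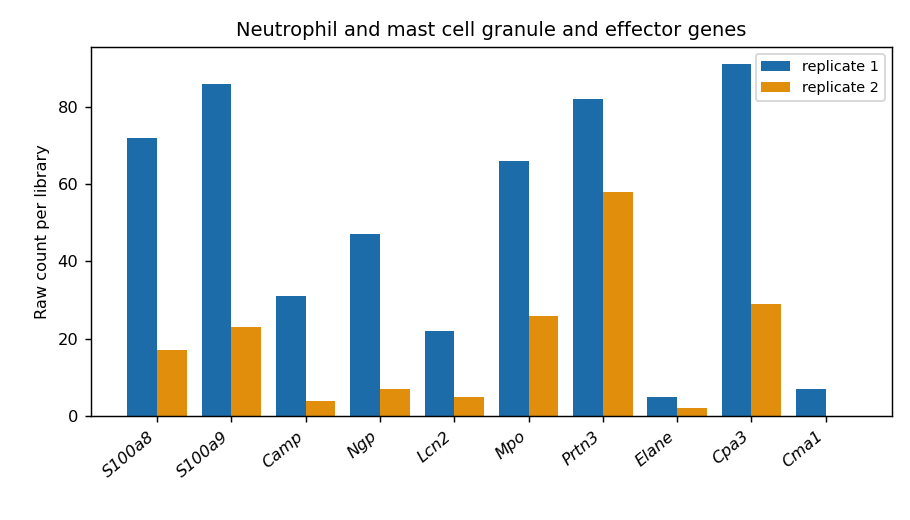
Raw counts of selected neutrophil and mast cell genes in replicate 1 (blue) and replicate 2 (orange), not corrected for the difference in total counts. The selection holds every gene of these classes called at 2-fold. Apart from Prtn3, tested genes that did not pass, such as Cebpa (164 and 162 counts) and Kit (543 and 528), are left out. S100a8, S100a9, Camp, Ngp, Lcn2, Mpo and Cpa3 are well above in replicate 1; Prtn3 has 82 and 58 counts and did not pass the test, and Elane and Cma1 were too low to be tested.

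Of the mast cell genes, Cpa3 had 91 counts in replicate 1 and 29 in replicate 2, 2.73-fold higher in replicate 1 (log2 ratio -1.45, 95% interval -2.12 to -0.85, exact binomial adjusted p = 1.11e-05). Cma1 had 7 counts and 0. The 95% interval of its log2 ratio reached up to -0.34, but the gene was too low to be tested. Kit did not pass, at a ratio of 0.14 (-0.03 to 0.32, exact binomial adjusted p = 0.296). Of the 14 further mast cell genes 7 had enough counts, and 1 of them, Cd63, passed as lower in replicate 2 (ratio -0.18, exact binomial adjusted p = 0.00103). The other 6 did not pass. All 7 ratios were below 0, with a median of -0.29. The difference between the ratios of Cpa3 and Kit was not tested.

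Il33 had 818 counts in replicate 1 and 304 in replicate 2, 2.37-fold higher in replicate 1 (log2 ratio -1.24, 95% interval -1.44 to -1.05, exact binomial adjusted p = 4.11e-39). Its receptor gene Il1rl1 had 46 and 30 counts and a ratio of -0.42 that did not pass (exact binomial adjusted p = 0.454). Csf1 had 1624 and 1390 counts and a ratio of -0.040 (-0.14 to 0.064). Among 23 further ligand and receptor genes, led by Plxnb2 (279 ± 5.11 TPM), Cxcl12 (92.2 ± 6.33 TPM), Csf2ra (45.3 ± 1.41 TPM) and Cxcr4 (20.6 ± 2.65 TPM), 2 were higher and 2 lower of 18 tested, none by 2-fold. Kitl, the ligand of Kit, stood at 14.2 ± 1.59 TPM, and Csf2 had 0 counts in both libraries.

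The macrophage genes had a median ratio of -0.10, with 3 of 22 lower in replicate 2, none of them by 2-fold, and 0 higher. Those 3 were C1qa (-0.51, 95% interval -0.67 to -0.35, exact binomial adjusted p = 1.75e-08), Ctss (-0.28, exact binomial adjusted p = 0.0056) and C1qc (-0.26, exact binomial adjusted p = 0.00333). With edgeR's exact test none of them passed, and C1qa had an adjusted p of 0.308. C1qb, between -0.22 and 0.063 by its interval, did not pass, nor did Csf1r (-0.097, -0.18 to -0.010, exact binomial adjusted p = 0.12), Cx3cr1 (-0.11) and Mrc1 (-0.074). Ptprc had the highest ratio of the class, 0.36 (0.068 to 0.66, exact binomial adjusted p = 0.0737). The levels of the 22 genes summed to 799 TPM in replicate 1 and 729 TPM in replicate 2. Of 36 further macrophage genes tested, 1 was higher (Ccr2, a monocyte chemokine receptor gene, 0.65) and 2 lower (the scavenger receptor gene Msr1, -0.56, and Apoe, -0.18), none by 2-fold. None of these 3 passed with edgeR's exact test, where the smallest adjusted p was 0.551.

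None of the 4 megakaryocyte members passed the test, with ratios from -0.39 for Ppbp to 0.064 for Gp9. Of 17 further megakaryocyte genes 5 were higher in replicate 2, none by 2-fold, and 0 were lower. Over all tested genes 8.85% were higher and 8.65% lower. Ratios were above 0 in 12 of the 17, and also in 13 of 14 endothelial and 13 of 17 erythroid genes. Which cells these differences came from was not tested. The 5 higher genes were Nfe2 (0.99), Thbs1 (0.54), Vwf (0.46), Itgb3 (0.37) and Mmrn1 (0.37). None of these 5 passed with edgeR's exact test, where the smallest adjusted p was 0.106. Rag1, the only lymphoid member with enough counts, had a ratio of 0.049. Of 13 further lymphoid genes tested Ebf1 was higher (0.52) and Tcf7 lower (-0.41), and both are also active outside lymphocytes. Neither passed with edgeR's exact test, nor did Cd63 or any of the 4 ligand and receptor genes.

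Markers of other tissues moved between the same libraries. Of 19 hepatoblast genes tested, 15 were higher in replicate 2 and 0 lower, 11 of them by at least 2-fold, with a median ratio of 1.22 and summed levels of 173 and 406 TPM. Those 11 were Afp (58.5 and 149.8 TPM), Alb (35.9 and 104 TPM), Apob, Apoa1, Apoa2, Ttr, Fgb, Hnf4a, Ahsg, Serpinc1 and Vtn, while Apoa4 had 0 counts in both. Erythroid genes were higher in 9 of 17 cases and lower in 2, with a median of 0.35 and sums of 6614 and 6395 TPM. The embryonic globin gene Hbb-y led them at 4283 ± 253 TPM. Blood progenitor genes were higher in 5 of 10 and lower in 0 (median 0.26). The highest were Meis1 (63.2 ± 2.84 TPM), Cd34 (53.0 ± 8.46 TPM), Runx1 (33.7 ± 2.68 TPM) and Lmo2 (16.1 ± 3.41 TPM). What part of their levels came from blood progenitors was not tested. All 14 endothelial and all 10 mesenchyme genes listed were expressed too. Endothelial genes were higher in 3 of 14 and lower in 1 (median 0.11). Mesenchyme genes had 2 higher and 5 lower of 10 (median -0.0010). With edgeR's exact test 7 of the 15 hepatoblast calls and 3 of the 11 erythroid calls passed, and 0 of the blood progenitor, endothelial and mesenchyme calls. The hepatoblast genes were thus higher in the library in which the tested neutrophil members, Cpa3 and Il33 were lower. Of the other neutrophil genes tested, 3 of 9 were called lower. The part of liver, blood or dissection in these differences was not tested.

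**Figure D4:**
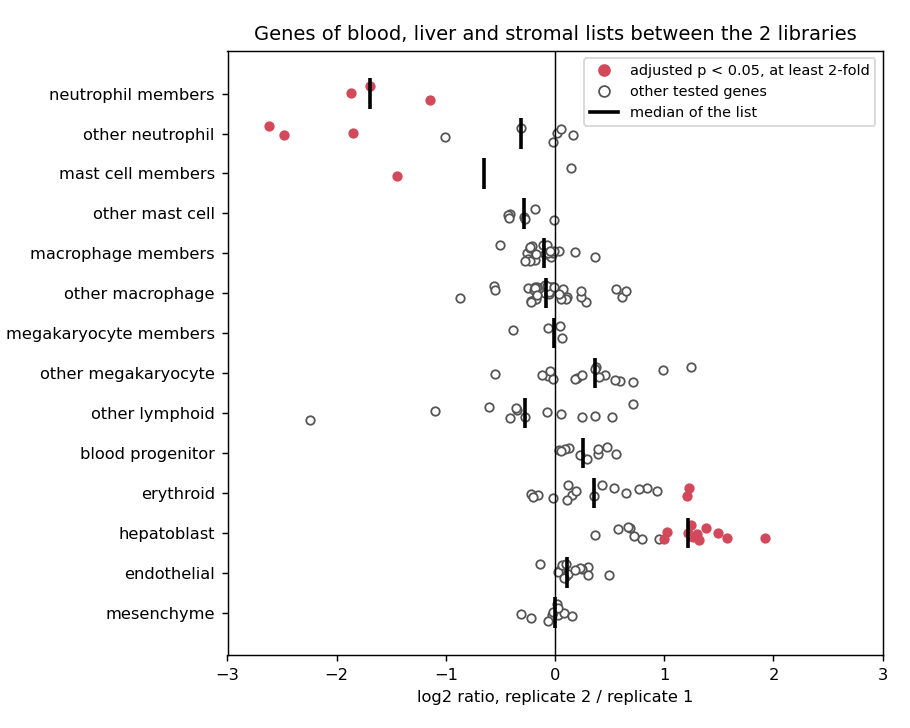
Ratio of replicate 2 to replicate 1 on the log2 scale for each tested gene of 14 lists; red points passed the test at 2-fold or more, open points did not, and black bars are list medians. Neutrophil members lie to the left (median -1.70), hepatoblast genes to the right (median 1.22), and macrophage members (median -0.10) and mesenchyme genes near 0. The other neutrophil genes have a median of -0.31.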

How the data were processed

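Per the submitters' processing notes, STAR 2.4.0a, SAMtools 1.3, featureCounts and build mm9 were used; their settings are not given in the sources used here. Raw counts per gene and TPM values were deposited by the authors for each library, and the deposited TPM equalled counts divided by gene length and brought to a sum of 1000000. Of the symbols also in GENCODE M21 (GRCm38), 77.2% had the position of a gene or transcript there, so GENCODE positions are given. The strand setting of counting is not given, so antisense reads may be included.

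The members and gene lists were chosen with earlier results of these data known. All members were named; of the other lists, the 4 highest by mean TPM (lists of erythroid, liver, endothelial and mesenchyme genes are given mainly by counts), genes called at 2-fold and genes at 0 counts. Chosen after seeing values, outside the rule, were Il34, Kitl, Il1rl1, Fcer1a, Itga2b, Rag2, Cd163, Ccr2, Msr1, Vwf, Nfe2, Itgb3 and Ebf1. Adgre1 and Ahsp are not analysed here. Some genes that this rule would name are not reported here.

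Counts were scaled by TMM in edgeR 4.0.16 (R 4.3.3), 0.5 was added for ratios, and intervals are exact (Clopper-Pearson, scipy 1.17.1). edgeR's quasi-likelihood test cannot be run on a single group of 2, so a binomial test was used. It was also run on simulated counts without spread beyond counting error. That run cannot show how the test behaves where libraries differ by more than counting error. Total counts were 26370253 and 23255957, and a count of 0 allows up to 0.114 and 0.129 CPM at the floor of 3 counts. Intervals and floors cover counting error only, since the reads carry no molecular identifiers and may be copies of one molecule. Alternatives were DESeq2 1.42.0 size factors, library totals, no count minimum, no fold minimum, edgeR's exact test with a common dispersion of 0.00639 from an intercept-only fit, other TPM thresholds and scaling, and each library alone.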

Additional observations from a re-analysis of the deposited data

How the results depend on the processing

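The number of expressed members was 25 to 34 over 6 alternatives (0.5 or 5 TPM, 10 counts in each library, TPM over features of 200 bp or longer, and each library alone, where it was 33 without replicate 1 and 32 without replicate 2). The median level of the macrophage genes was 30.2 TPM without replicate 1 and 30.9 without replicate 2, that of the lymphoid genes 0.192 and 0.110 TPM, that of the neutrophil genes 3.51 and 10.8 TPM, and that of the mast cell genes 0.208 and 0.768 TPM. With TPM computed over features of 200 bp or longer, the macrophage median was 33.8 TPM and the megakaryocyte median 11.7 TPM. Without Gp1bb, which shares most of its exon bases, the megakaryocyte median was 2.33 TPM.

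The count of members differing by at least 2-fold was 5 with DESeq2 size factors, library totals and no count minimum, and 4 with edgeR's exact test, where Mpo was lost; it was 8 with no fold minimum. Over all genes it was 245, against 104 with edgeR's exact test and 3399 with no fold minimum. Of the 21 genes followed singly that were called at 2-fold, 14 kept the call with edgeR's exact test and 7 lost it (Mpo, Lcn2 and 5 liver genes), and 1 (Apoa1) lost it with library totals. C1qa, C1qc and Ctss, called with no fold minimum, did not pass edgeR's exact test. The median ratios of the 6 classes moved by less than the counting error of the gene taken as nearest the median under the alternatives run. In the mast cell and cytokine classes only 2 genes were tested, and the gene taken was Kit and Csf1. DESeq2 size factors and library totals shift every ratio by the same small amount, so they could hardly move a class. Leaving out a library leaves no comparison between libraries, and no paired analysis was possible because there is 1 group. Genes with fewer than 10 counts, such as Cma1, Elane, Ms4a2, Cd3e and Il7r, are too shallow for a comparison.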
